A study of Xenopus laevis with 15 samples.

Results

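The 8 genes described here were listed together as mucus cell genes, which is the name of the list and no finding of these data. They were read in whole young tadpoles of the African clawed frog, Xenopus laevis, exposed to lead(II) nitrate. They were picked by Entrez identifier, from earlier results on these same libraries, out of 37018 genes in the count table: clca1.2.L, clca1.1.L, tm4sf20.L, tm4sf20.S, agr2.L, agr2.S, muc2l.L and spdef.S. All 8 had enough reads to be tested. The letters .L and .S mark the paired copies (homeologs) that many genes of this frog have, and the figure before them marks a tandem copy.

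Total RNA of whole bodies was poly(A)-selected and sequenced from 15 libraries, each a pool of 3 animals. The 3 groups of 5 libraries were a water control and lead nitrate at the levels that the sample titles give as 210 and 630 ng/L. The treatment protocol states the same figures in µg/L, so the groups are named lead 210 and lead 630 with no unit. Exposure ran for 96 h from 48 h after fertilization, and animals were 6 days old at sampling. Libraries held 10.8 to 24.7 M counts (M, units of 1e+06). Levels are given in CPM, reads of the gene per 1e+06 reads counted in the library, with library totals scaled by TMM factors. On that scale a floor of 3 reads stood at 0.124 to 0.274 CPM. No label ties a pool to its own dish or clutch, so each SE and p-value reflects how far these 5 pools of a group scatter, which may in part be technical.

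Mucus cells fill large granules with mucins, heavily glycosylated proteins that swell into a gel when released. Before they are packed, mucins fold in the endoplasmic reticulum with the help of AGR2, a protein disulfide isomerase that mice need to make the intestinal mucin MUC2. In mouse gut and airway the Ets factor SPDEF drives the maturation of goblet cells. CLCA1 is secreted with mucus in mammals and raises the activity of a calcium-activated chloride channel. TM4SF20 is a small membrane protein with 4 passes through the membrane. In human cells it controls the cutting of the transcription factor CREB3L1. In Xenopus, agr2 and its relative ag1 are also long known as genes of the cement gland, the sticky organ of the young tadpole. Whole-body RNA cannot tell fewer cells of a type from less RNA per cell, nor gut from skin.

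The members did not share one pattern across the groups. Both clca1 genes and tm4sf20.L were lower in every lead 630 library than in every control, and at lead 210 they overlapped the controls. The agr2 pair had somewhat higher means at both lead levels, with overlap, and spdef.S and muc2l.L overlapped throughout. These group levels are what the genes were chosen on, so they are given as a description and carry no test. For the record, 3 of the 8 (clca1.2.L, clca1.1.L and tm4sf20.L) were lower with an adjusted p under 0.05 at lead 630 against control, where 0.303% of 27060 genes were, and 0 of the 8 were higher, beside 1.98%. The same 3 had lead 630 libraries all below the controls, as did 0.983% of genes, and none had them all above, beside 2.86%. At lead 210 none of the 8 was called, where 0.144% of genes were called lower and 1.76% higher. Neither did any of the 8 separate from the controls there, where 1.06% of genes lay wholly below and 2.94% wholly above. The calls of both clca1 genes at lead 630 ended when certain single libraries were left out, and nothing below rests on them.

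The widest range belonged to clca1.2.L, one of the tandem clca1 copies. Its level was 41.7, 69.7, 152, 14.5 and 49.9 CPM in controls A to E. At lead 210 it was 44.9, 44.3, 40.8, 2.82 and 146 CPM in libraries A to E, and at lead 630 it was 3.29, 0, 0.67, 2.66 and 2.4 CPM. All lead 630 libraries lay below all controls, while lead 210 D, alone in its group, sat among the lead 630 values. The lead 630 libraries held 36, 0, 16, 44 and 58 reads of the gene, against 179 to 3685 in controls. The log2 fold change of lead 630 against control was -5.25 ± 1.05 (SE), from 65.6 ± 52.4 to 1.81 ± 1.4 CPM (SD, n = 5 each). It was -4.97 without lead 630 B and -4.66 without control C. At lead 210 it was -0.25 ± 0.77, and it turned positive without lead 210 D (0.06) or without control C (0.33).

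Its tandem neighbour clca1.1.L had the smaller difference of the pair. Controls A to E stood at 92.8, 157, 280, 81.8 and 119 CPM, and lead 210 at 182, 129, 136, 98.6 and 157 CPM. At lead 630 the values were 74.3, 36.3, 70, 41.1 and 48.3 CPM, below every control and every lead 210 library. The log2 fold change was -1.44 ± 0.33 at lead 630 and -0.06 ± 0.33 at lead 210. Of the reads of this tandem pair, clca1.1.L took 71.7% ± 7.71 in controls, 76.1% ± 16.2 at lead 210 and 96.8% ± 2.6 at lead 630 (SD, n = 5 each; not corrected for length). Reads that match both copies could have been split or dropped in counting, so values of such near copies are uncertain.

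Of the tm4sf20 homeologs, the .L copy showed the group difference. Its level in controls A to E was 30.5, 74.1, 109, 40.6 and 57.6 CPM. Lead 210 libraries had 49.6, 43.9, 44.2, 18 and 60.8 CPM, and lead 630 libraries 17.8, 16.8, 15.6, 21 and 14.3 CPM. The lead 630 libraries again lay below all controls and lead 210 D was again the lowest of its group. At lead 630 the values were also close together, with an SD of 14.9% of the mean against 49.6% in controls. The log2 fold change was -1.88 ± 0.36 at lead 630 and -0.54 ± 0.34 at lead 210.

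The .S copy of tm4sf20 was read far less, with 28 to 155 reads per library. It ranged from 2.92 to 6.41 CPM in controls (median 5.18), from 3.91 to 8.27 CPM at lead 210 (median 5.46) and from 2.56 to 5.68 CPM at lead 630 (median 2.69). The groups overlapped, and the log2 fold change was -0.51 ± 0.25 at lead 630. The .L copy's share of the reads of both was 92% ± 2.49 in controls, 87.7% ± 4.27 at lead 210 and 83.6% ± 3.57 at lead 630 (SD, n = 5 each). Every lead 630 library, at 78.7 to 87.4%, had a lower .L share than every control, at 88.7 to 94.5%. This share holds the same low .L level at lead 630 on which the gene was chosen, so it is no separate result. How many other homeolog pairs part in this way was not worked out.

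**Figure D1:**
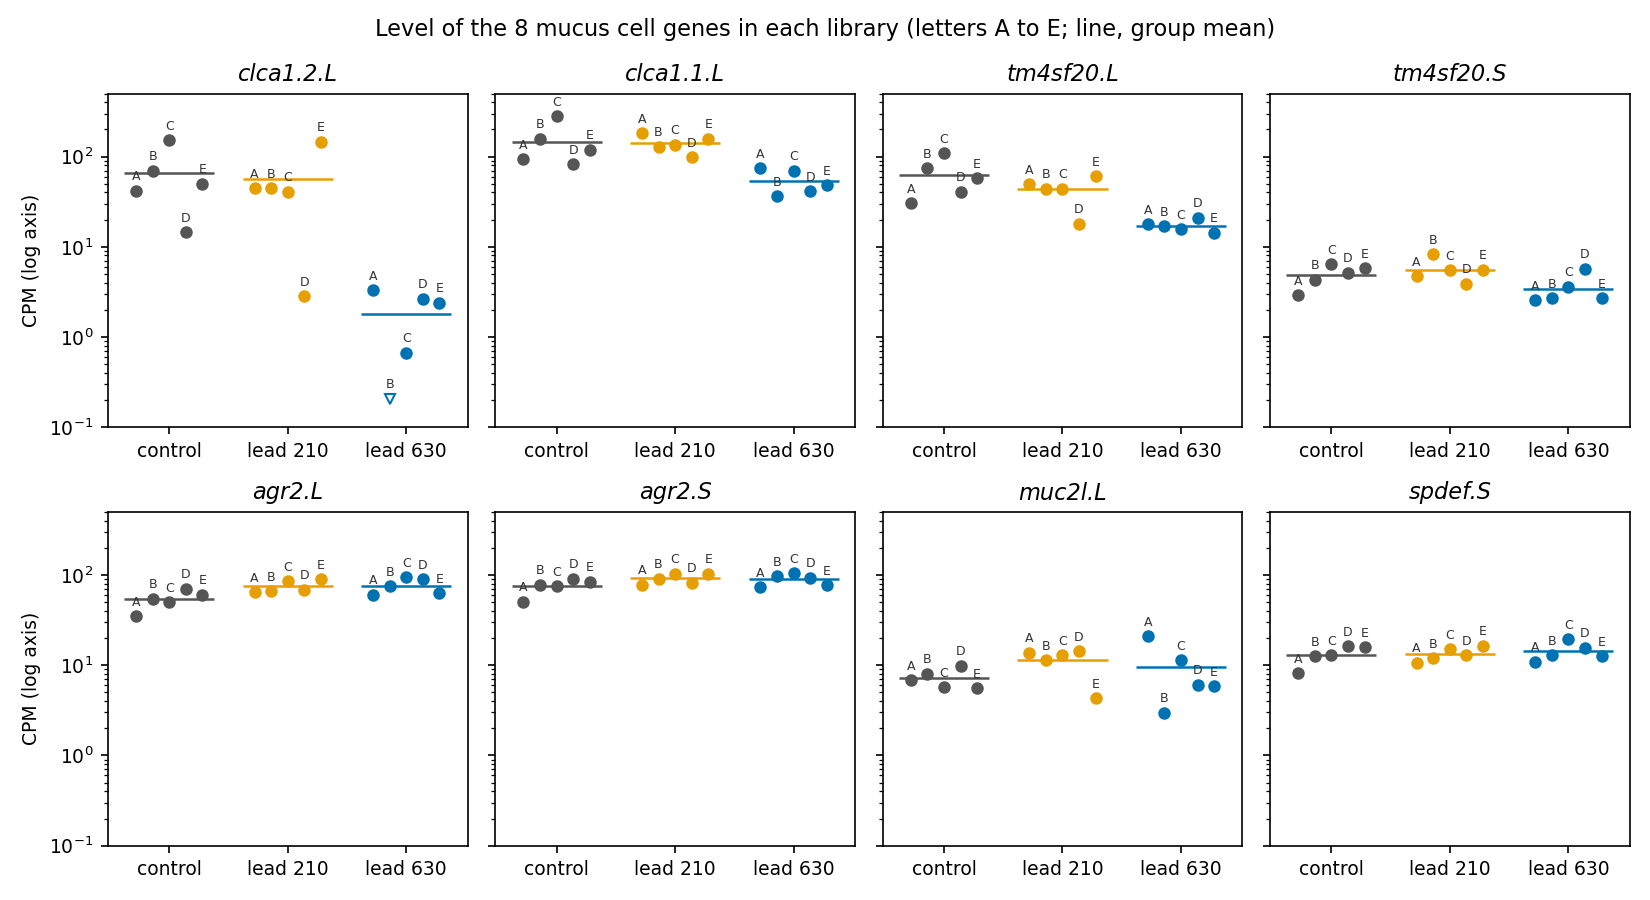
CPM on a log axis for each of the 8 genes in the 15 libraries, lettered A to E within control, lead 210 and lead 630. Lines are group means, and the open triangle marks 0 reads, drawn at that library's floor of 3 reads. Lead 630 points of clca1.2.L, clca1.1.L and tm4sf20.L lie below all controls, and lead 210 D is the lowest of its group for these 3 genes and for tm4sf20.S.

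The agr2 homeologs, whose product folds mucins, did not follow the clca1 and tm4sf20 genes. The .L copy stood at 35.1, 54.7, 50.2, 70.3 and 60.6 CPM in controls, at 64.9, 66.6, 85.2, 69.1 and 89.6 CPM at lead 210 and at 60.6, 74.7, 95.3, 89.7 and 62.6 CPM at lead 630, each in the order A to E. Of the lead 630 libraries, 3 of 5 were above every control, as were 2 of 5 at lead 210. Log2 fold changes were 0.50 ± 0.17 at lead 630 and 0.47 ± 0.17 at lead 210.

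The .S copy of agr2 ranged from 50.7 to 91.5 CPM in controls (median 78.4), from 77.9 to 104 CPM at lead 210 (median 91.2) and from 73.7 to 105 CPM at lead 630 (median 93.7). Its log2 fold changes were 0.24 ± 0.14 and 0.27 ± 0.14 at lead 630 and lead 210. The .L copy took 41.5% ± 1.27 of the reads of the pair in controls, 45% ± 1.59 at lead 210 and 45.9% ± 2.3 at lead 630, so the mean share of the .L copy was higher at both levels, although lead 210 B, at 42.2%, and lead 630 B, at 43.3%, lay within the controls' 40.1 to 43.4%.

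The gel-forming mucin gene muc2l.L, a relative of mammalian MUC2, was uneven among exposed pools. Controls were at 6.8, 8.1, 5.71, 9.88 and 5.54 CPM. Lead 210 libraries A to D stood at 13.8, 11.4, 13 and 14.3 CPM, above every control, but lead 210 E was at 4.31 CPM, below every control. Lead 630 spread from 2.97 CPM in library B to 21 CPM in library A. The log2 fold change was 0.68 ± 0.44 at lead 210 and 0.38 ± 0.45 at lead 630.

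The transcription factor gene spdef.S ranged from 8.12 to 16.3 CPM in controls (median 12.9), from 10.7 to 16.4 CPM at lead 210 (median 13) and from 10.9 to 19.3 CPM at lead 630 (median 13). The log2 fold changes were 0.13 ± 0.18 at lead 630 and 0.03 ± 0.18 at lead 210. The 3 groups overlapped, and each mean lay within the range of the other groups.

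Lead 630 was also set against lead 210 directly. In that contrast the log2 fold changes were -5.00 ± 1.06 for clca1.2.L, -1.38 ± 0.33 for clca1.1.L, -1.34 ± 0.36 for tm4sf20.L and -0.68 ± 0.26 for tm4sf20.S. They were 0.03 ± 0.17 for agr2.L, -0.03 ± 0.14 for agr2.S, -0.30 ± 0.44 for muc2l.L and 0.10 ± 0.18 for spdef.S. All clca1.1.L values at lead 630 were below all those at lead 210, as were those of 0.281% of genes, and for clca1.2.L and both tm4sf20 copies 4 of the 5 were. Among all genes tested, 0 of 27060 (0%) passed in this contrast by edgeR's quasi-likelihood test, 1260 had an unadjusted p under 0.05, and DESeq2 called 6. Of the members, clca1.2.L was among those 6 (log2 fold change -4.95), and its adjusted p by edgeR was above 0.05 under each of the other 15 alternatives. That call is no test, since the members were chosen on their levels in these groups.

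How the members varied from pool to pool within a group is a measure that does not use the group levels. With group means subtracted from log2 CPM, agr2.L, agr2.S and spdef.S varied together over the 15 libraries. The lowest library was A for all 3 genes in all 3 groups, and the highest was D in controls, E at lead 210 and C at lead 630. Pearson's r was 0.961 for agr2.L with spdef.S (Spearman's rho 0.95; permutation within groups, 2-sided p = 1e-05, the smallest that 100000 resamples can give, adjusted p = 0.00028 over 28 pairs for both coefficients). It was 0.946 for agr2.L with agr2.S (rho 0.964, permutation p = 3e-05 and 2e-05, adjusted 0.00042 and 0.00028) and 0.92 for agr2.S with spdef.S (rho 0.939, permutation p = 5e-05 and 4e-05, adjusted 0.000467 and 0.000373). Leaving out the 2 libraries farthest from the median of the first gene gave r of 0.939, 0.904 and 0.839 in that order. Within each group alone r lay between 0.837 and 0.986 for these pairs. The permutation shuffled each group on its own, as if libraries of the same letter were unlinked. No label tells whether they share a clutch or batch. Over genes with at least 1 CPM, deviations of same-lettered libraries had r of 0.189 to 0.325 for A and -0.113 to 0.00935 for C. If letters are linked, the permutation p-values here and for the other pairs below could be too small.

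A second, looser set was formed by clca1.2.L, clca1.1.L and tm4sf20.L. Pearson's r was 0.683 for clca1.2.L with tm4sf20.L (rho 0.768; permutation p = 0.00471 and 0.00118, adjusted 0.0289 and 0.00826), and 0.681 without lead 210 D and lead 630 B. It was 0.628 for clca1.2.L with clca1.1.L (rho 0.639; permutation p = 0.00619 and 0.0165, adjusted 0.0289 and 0.0923) and 0.712 for clca1.1.L with tm4sf20.L (rho 0.621; permutation p = 0.00576 and 0.0219, adjusted 0.0289 and 0.102). The rank coefficients of the last 2 pairs missed 0.05 after adjustment. Without the 2 farthest libraries these pairs gave r of 0.548 and 0.627. The set held in controls, with r of 0.789, 0.928 and 0.936 in the order given, and at lead 210, with 0.99, 0.809 and 0.872. At lead 630 r was 0.207, 0.462 and -0.22, so the set did not hold there. In that group clca1.2.L had few reads, and tm4sf20.L had an SD of 14.9% of its mean, against 49.6% in controls. Each r within a group rests on 5 libraries. Why the set did not hold at lead 630 was not tested.

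Across the sets the 12 pairs of a clca1 or tm4sf20 gene with agr2.L, agr2.S or spdef.S had r of -0.104 to 0.596, and 0 of them passed after adjustment by either coefficient. The highest values there were those of tm4sf20.S, the weakly read homeolog, with r of 0.557 to 0.596 (permutation p = 0.0504 to 0.0351, adjusted 0.141 to 0.123). With tm4sf20.L, clca1.2.L and clca1.1.L, tm4sf20.S had r of 0.579, 0.36 and 0.195, and none of these passed after adjustment by either coefficient. It thus went no more closely with the looser set than with agr2 and spdef.S. The mucin gene muc2l.L followed neither set, with r of -0.269 to 0.206 over its 7 pairs and 0 passing. In all, 6 of the 28 pairs were called by Pearson's r and 4 by rho. Among all pairs of 19724 named genes with at least 1 CPM, treated the same way, 3.29%, 1.96% and 1.44% had an r of at least the 0.628, 0.683 and 0.712 of the clca1 and tm4sf20.L pairs, so values of that size were common. An r of at least 0.92, 0.946 and 0.961, as within agr2 and spdef.S, was reached by 0.0175%, 0.0048% and 0.00184% of gene pairs.

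**Figure D2:**
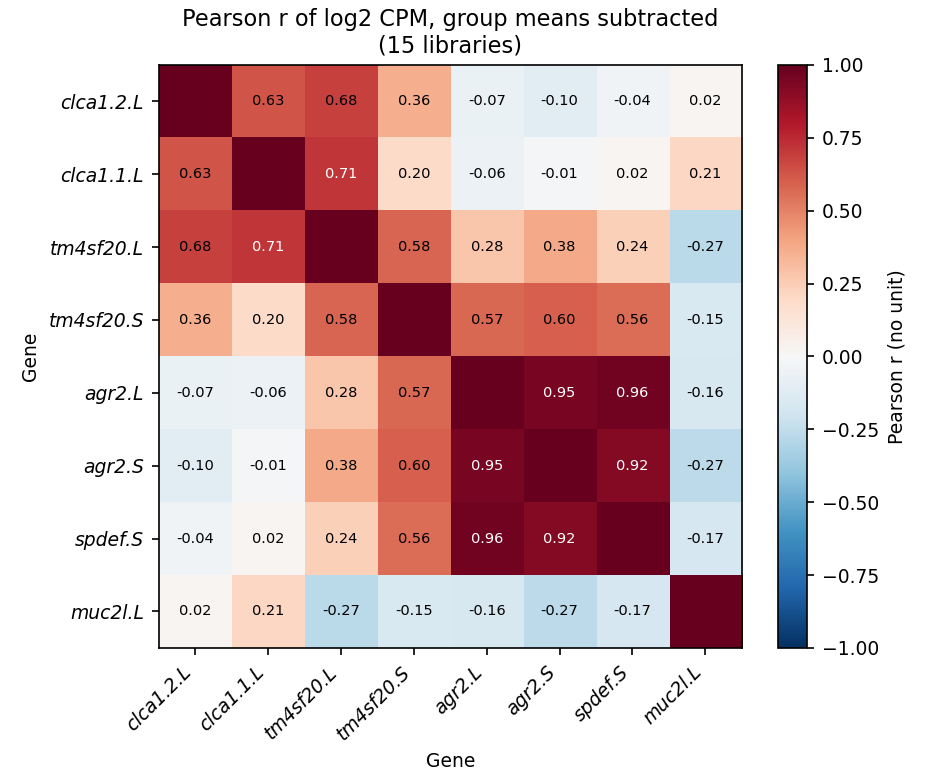
Pearson's r between the 8 genes over 15 libraries, from log2 CPM with each group's mean subtracted, so that group differences play no part. One block of 3 genes (agr2.L, agr2.S and spdef.S, r of 0.92 to 0.961) and a looser one (clca1.2.L, clca1.1.L and tm4sf20.L, r of 0.628 to 0.712) can be seen, and muc2l.L has r of -0.269 to 0.206 with the other 7 genes.

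Because agr2 and spdef.S kept so close a relation, their ratio within a library was read as well, a choice made after the values were seen and given with no test. For each read of spdef.S there were 4.32, 4.33, 3.91, 4.32 and 3.82 reads of agr2.L in controls A to E. The ratio was 6.09, 5.62, 5.67, 5.31 and 5.47 at lead 210 and 5.56, 5.76, 4.94, 5.73 and 4.97 at lead 630. Every exposed library thus had a higher ratio than every control, with means of 4.14 ± 0.254, 5.63 ± 0.29 and 5.39 ± 0.404 (SD, n = 5 each). Read ratios within a library do not depend on the scaling between libraries. Genes that vary together give ratios with little scatter, so a small shift can part the groups. This ratio also holds the agr2.L and spdef.S levels on which those genes were chosen, so it is no separate result. How many other gene pairs part in the same way was not worked out, for this ratio or the next ones.

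For agr2.S the ratio to spdef.S was 5.31 to 6.25 in controls, 6.32 to 7.69 at lead 210 and 5.42 to 7.53 at lead 630, so only the lead 210 libraries were all above the controls. The ratio for ag1.S, the related anterior gradient gene, was 8.55 to 10.2 in controls, 11.7 to 16.1 at lead 210 and 10.6 to 13.6 at lead 630, and neither exposed group overlapped the controls.

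**Figure D3:**
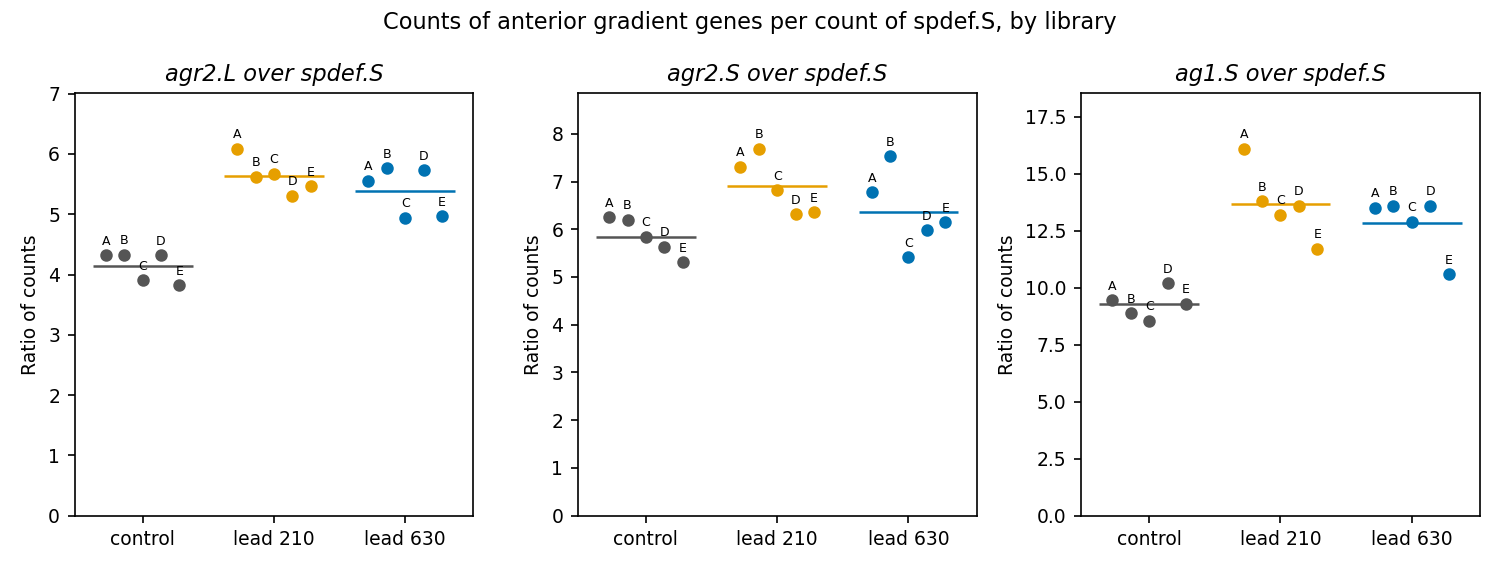
Reads of agr2.L, agr2.S and ag1.S per read of spdef.S in each library, lettered A to E, with group means as lines and a linear axis from 0. For agr2.L the controls lie at 3.82 to 4.33 and all 10 exposed libraries at 4.94 or above. The ratios were chosen after the values were seen and were not tested.

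**Figure D4:**
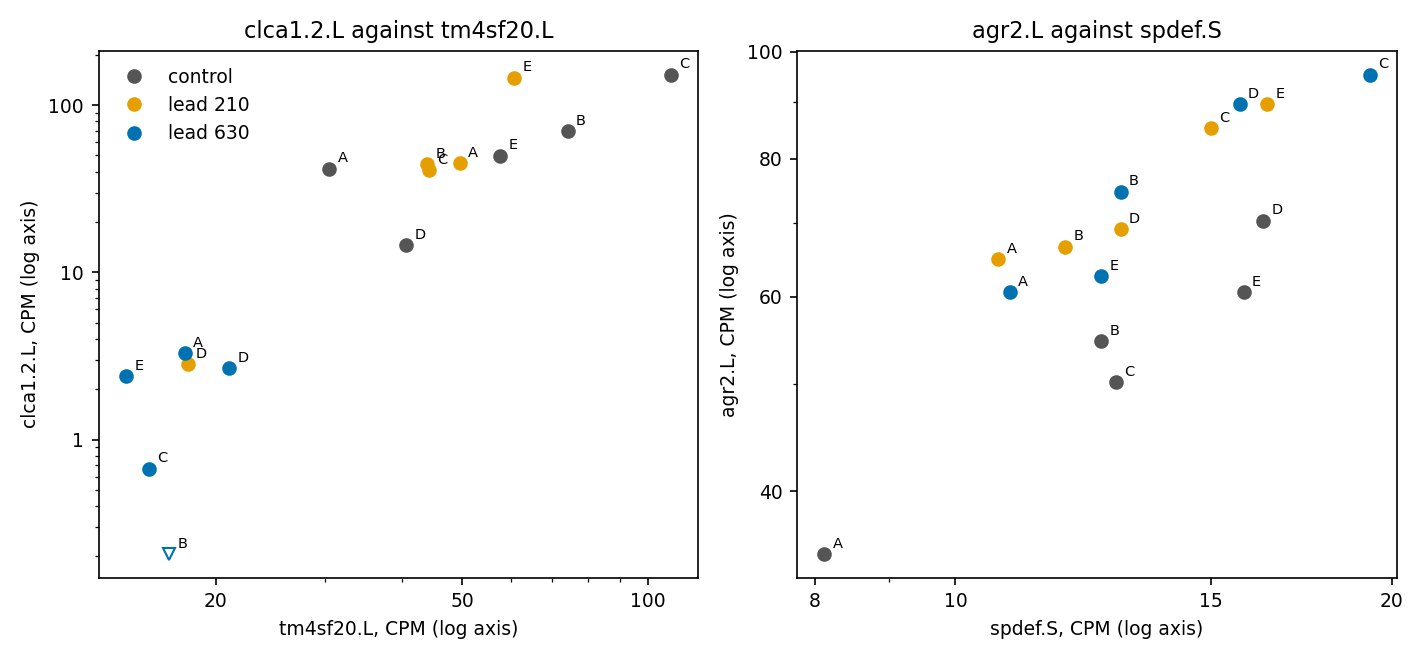
CPM of clca1.2.L against tm4sf20.L (left) and of agr2.L against spdef.S (right) on log axes, one point per library, with the open triangle at the floor for 0 reads. On the left lead 210 D, at 18 and 2.82 CPM, lies among the lead 630 libraries. On the right exposed libraries lie above controls of like spdef.S level.

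The genes most like 3 of the members were read out over 19723 named genes with at least 1 CPM, as Pearson's r of log2 CPM over the 15 libraries and with no test. For clca1.2.L the nearest were tm4sf20.L (0.887) and clca1.1.L (0.871). The dual oxidase gene duox2.L (0.842), the transmembrane channel-like gene tmc5.L (0.841) and bcl9l.L (0.827), a cofactor of Wnt signalling, came next. For tm4sf20.L they were tmc5.L (0.919), clca1.2.L (0.887), noxo1.S (0.877), clca1.1.L (0.869) and sh3bgrl2.L (0.864). Such r values hold the group difference on which the anchors were chosen.

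The level of tmc5.L was 18.9 to 35.7 CPM in controls, 16.9 to 29.3 CPM at lead 210 and 13.4 to 18.2 CPM at lead 630, where each library was below every control. As with the clca1 pair and tm4sf20.L, lead 210 D was the lowest of its group. The log2 fold change was -0.82 ± 0.20 at lead 630 and -0.20 ± 0.19 at lead 210. With group means subtracted, tmc5.L was still among the nearest 5 of tm4sf20.L (r = 0.817), after clec16a.L (0.852), ube2z.L (0.846), rnpc3.L (0.845) and pole4.L (0.825). For clca1.2.L the nearest by that measure were cacna1i.L (0.847), rnf223.L (0.808), kcnt2l.S (0.805), irak2.L (0.782) and cdk2.S (0.778).

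For agr2.L the nearest genes were ag1.S (0.97) and agr2.S (0.94), then sec11c.S (0.927), a subunit of the signal peptidase, lrsam1.S (0.913), and rrbp1.S (0.9), which binds ribosomes to the endoplasmic reticulum. With group means subtracted they were spdef.S (0.961), ag1.S (0.947), agr2.S (0.946), lrsam1.S (0.94) and the disulfide isomerase gene pdia6.L (0.916). The level of ag1.S was 76.8, 112, 110, 166 and 147 CPM in controls A to E, 164 to 198 CPM at lead 210 and 133 to 249 CPM at lead 630. Its log2 fold changes were 0.59 ± 0.19 at lead 630 and 0.56 ± 0.19 at lead 210.

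In the gene table of assembly Xenopus_laevis_v10.1, clca1.3.L, clca1.2.L and clca1.1.L are neighbours in that order. Of 6 other CLCA genes in the counts 4 were tested, and 0 passed at either lead level by edgeR's quasi-likelihood test, with 1 at an unadjusted p under 0.05 at each level. Next door to clca1.2.L, clca1.3.L stood at 4.54 to 20.8 CPM in controls, 3.64 to 15.7 CPM at lead 210 and 6.35 to 12.5 CPM at lead 630. It showed no such group difference (-0.27 at lead 630, adjusted p = 0.842), although lead 210 D was again its lowest library. The most abundant of the rest, clca3p.L, had a log2 fold change of -0.20 at lead 630 (adjusted p = 0.585).

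Of 6 other TM4SF genes 0 passed at either level (2 at an unadjusted p under 0.05 at lead 630, 1 at lead 210). The highest by level were tm4sf4.L, at 158 ± 38.1 CPM in controls and 189 ± 37.6 CPM at lead 630, and tm4sf5.S, at 61.7 ± 17.7 and 82.4 ± 14 CPM (SD, n = 5 each). Of 3 further AGR family genes 0 passed (1 at an unadjusted p under 0.05 at each level). The most abundant of these 3, a list without ag1, was txndc12.L, at 26.4 ± 1.16 CPM in controls and 32.7 ± 4.84 CPM at lead 630 (SD, n = 5 each; adjusted p = 0.106). The neighbour of agr2.L, agr3.L, had a log2 fold change of 0.15 at lead 630 (adjusted p = 0.708).

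The rest of the mucus pathway was taken from 6 lists (mucins and other granule cargo, transcription factors, folding, O-glycan synthesis, granule release, and ion and water transport), with the 8 members left out. Of their 152 counted genes, 132 were tested. The lists were drawn up with earlier results of these data known, so their counts and the p-values of their genes are read as a description. Homeologs and tandem copies, such as those of creld2 and slc26a3, were counted separately. At lead 630 5 of them rose and 0 fell, or 3.79%, beside 2.28% of all genes. At lead 210 11 rose and 0 fell, or 8.33%, beside 1.9% of all genes. By edgeR's quasi-likelihood test with unadjusted p under 0.05, 15 of the 132 were higher and 11 lower at lead 630, where 8.32% of all genes were higher and 4.62% lower. At lead 210 29 were higher and 5 lower, beside 8.01% and 4.84% of all genes. The median log2 fold change of these 132 genes stood at -0.03 at lead 630 and 0.10 at lead 210, beside -0.01 and 0.00 over all genes. No list gene passed between lead 630 and lead 210 by edgeR or DESeq2. At an unadjusted p under 0.05 by edgeR 12 of the 132 were lower and 0 higher in that contrast. Of all genes 2.52% were lower and 2.14% higher at that p. The fold change was negative for 100 of the 132, beside 48.9% of all genes. Genes that vary together are not independent, so this count is a description. Lead 630 E had the lowest sum of its group in the cargo, folding, O-glycan, release and transport lists. Its sums were 705 CPM for release and 693 CPM for transport, where the group medians were 881 and 859 CPM. In the transcription factor list lead 630 B was lowest.

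Among sugar-transferring enzymes 1 of 42 tested genes rose at lead 630 and 3 at lead 210, with 0 lower at either level. For this list and the next ones, the shares of all genes called higher were 1.98% at lead 630 and 1.76% at lead 210. The branching enzyme gene gcnt1.L, which makes core 2 O-glycans, went from 10.5 ± 1.39 CPM to 21.1 ± 1.57 CPM at lead 630 and 20.3 ± 2.5 CPM at lead 210 (SD, n = 5 each). Its log2 fold changes were 1.01 ± 0.10 and 0.96 ± 0.10, with adjusted p of 3.19e-06 and 8.66e-06 by edgeR's quasi-likelihood test, and no exposed library overlapped the controls. The polypeptide GalNAc transferase genes galnt3.L and galnt6.2.L, which start O-glycans, rose at lead 210 (0.68 ± 0.14 and 0.76 ± 0.18, adjusted p = 0.0105 and 0.0263). At lead 630 their values were 0.27 ± 0.14 and 0.37 ± 0.18 and did not pass.

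In ion and water transport 2 of 29 tested genes rose at lead 630 and 5 at lead 210, and 0 fell. They were led by slc26a3, the chloride and bicarbonate exchanger of the gut lining. The copy slc26a3.2.S rose from 5.27 ± 1.01 CPM to 12.1 ± 1.97 CPM at lead 630 and 11.5 ± 2.73 CPM at lead 210 (1.19 ± 0.16 and 1.13 ± 0.17, adjusted p = 0.000171 and 0.000381 by edgeR). The copy slc26a3.3.S rose by 1.93 ± 0.40 and 2.08 ± 0.40 (adjusted p = 0.0161 and 0.0105). At lead 210 slc26a3.3.L (1.58 ± 0.33, adjusted p = 0.0199), the chloride channel gene cftr.L (1.2 ± 0.25, adjusted p = 0.0144) and the aquaporin gene aqp8.L (1.33 ± 0.28) also rose.

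In the folding list 2 of 14 rose at lead 630 and 3 at lead 210, with 0 lower: creld2.L and creld2.S, which encode a chaperone-like protein of the endoplasmic reticulum, and at lead 210 the reductase gene dnajc10.S (0.62 ± 0.13). For creld2.S the level was 1.77 to 2.56 CPM in controls, 4.59 to 8.12 CPM at lead 210 and 4.02 to 5.2 CPM at lead 630, with log2 fold changes of 1.71 ± 0.16 and 1.14 ± 0.17 at lead 210 and lead 630. The sensor genes ern2.L and ern2.S, known for mucus cells in mice, had log2 fold changes of -0.07 and -0.18 at lead 630 and did not pass; they were picked for that role after their values were seen.

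No transcription factor of the list passed at either level (0 of 20, with 3 at an unadjusted p under 0.05 at lead 630 and 1 at lead 210 by edgeR), and 17 of the 20 fold changes were negative at lead 630 and 12 at lead 210, beside 51.3% and 50.5% of all genes. The most abundant, xbp1.L, stood at 81.6 ± 13.5 CPM in controls and 85.5 ± 11.5 CPM at lead 630, and next came the epithelial Ets factor gene elf3.S, at 51 ± 13 and 36.7 ± 8.02 CPM (adjusted p = 0.27). Neither did any of 19 release genes (3 and 2 at an unadjusted p under 0.05) or of 10 cargo genes (3 and 4). Those release genes with most reads were sytl2.L, for a docking protein of secretory granules, at 151 ± 18.3 CPM in controls and 130 ± 23.6 CPM at lead 630, and marcks.L, a regulator of mucin secretion in mammalian airway cells, at 111 ± 6.73 and 97.4 ± 4.78 CPM. The cargo genes with most reads were otogl2.L, an otogelin relative, at 388 ± 20.7 CPM in controls and 341 ± 52.6 CPM at lead 630, and the lectin gene zg16.L, at 53.1 ± 7.96 and 66 ± 10.2 CPM.

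**Figure D5:**
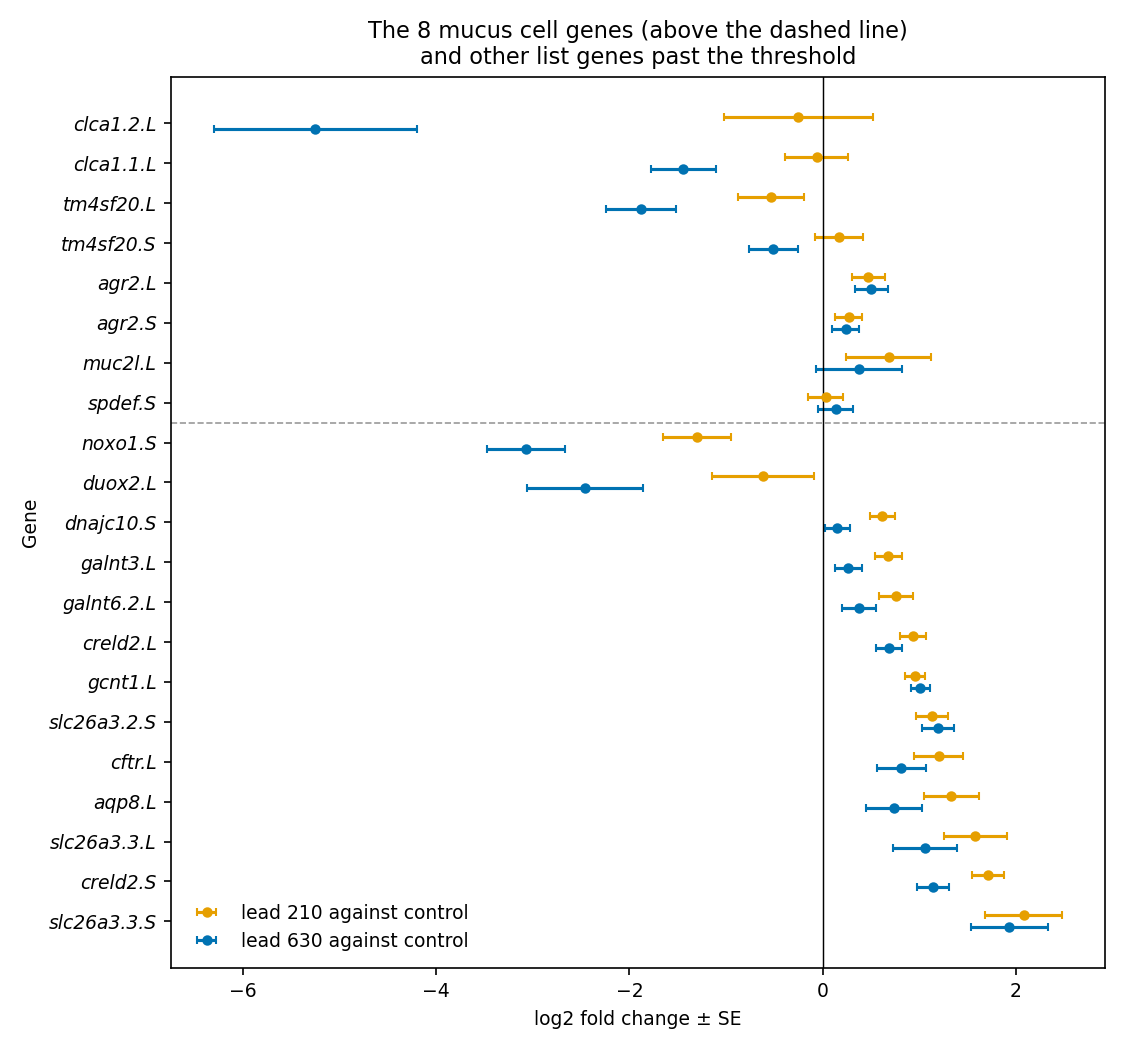
Log2 fold changes against control with SE for the 8 genes (above the dashed line) and for genes of the mucus and NADPH oxidase lists past the threshold in a comparison (below it), at lead 210 and lead 630. The plotted values at lead 630 and lead 210 are -5.25 and -0.25 for clca1.2.L, 0.50 and 0.47 for agr2.L and 1.01 and 0.96 for gcnt1.L.

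Few mucins carry a symbol in this genome, so genes that the authors' deposited table names as mucins were also read out, a set made after values were seen. Of 40 such genes tested 1 was called higher and 1 lower at lead 630 (5%, beside 2.28% of all genes), and 1 higher and 0 lower at lead 210 (2.5%, beside 1.9%). The one higher at both levels was LOC108704984, named mucin-2-like. It had 2 to 11 reads in controls, or 0.343 ± 0.133 CPM, near the floor, and 3.13 ± 1 CPM at lead 210 and 2.93 ± 0.429 CPM at lead 630 (SD, n = 5 each). Its log2 fold changes were 3.15 ± 0.29 and 3.06 ± 0.29 (adjusted p = 1.47e-06 and 1.66e-06 by edgeR). The most abundant of the set were LOC108713475, named mucin-2-like (mean 178 CPM), and LOC108716955, named mucin-4-like (mean 129 CPM). Their log2 fold changes were -0.03 and 0.03 at lead 630 and 0.14 and -0.05 at lead 210, and neither passed.

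The one lower at lead 630 was LOC108711738, named mucin-3B-like after a mucin anchored in the membrane. It held 8, 22, 87, 15 and 11 reads in controls A to E, 15, 13, 15, 3 and 26 at lead 210 and 1, 2, 0, 1 and 1 at lead 630 (adjusted p = 0.00504 at lead 630 by edgeR). All lead 630 libraries were under the floor of 3 reads, so no fold is given. Its lowest library at lead 210 was D, and its highest in controls was C, as for clca1.2.L and tm4sf20.L. Its r with tm4sf20.L over the 15 libraries was 0.957 and with clca1.2.L 0.857, given as a description. Group means were not subtracted, so these r values hold the lower level at lead 630 for which all of these genes were picked.

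Epithelial NADPH oxidases deliver hydrogen peroxide at the gut surface, and 2 of 6 tested genes of that list fell at lead 630 and 0 rose, with 0 either way at lead 210 (1 at an unadjusted p under 0.05). That list was drawn up with the decrease of these genes known, so its counts and p-values are a description and no test. Of all genes 0.303% were called lower at lead 630. The organizer gene noxo1.S stood at 3.54, 6.25, 7.11, 2.99 and 3.05 CPM in controls A to E, 0.958 to 3.71 CPM at lead 210 and 0.274 to 0.838 CPM at lead 630. Its lead 630 libraries A to E held 3, 6, 20, 9 and 12 reads, so library A lay at the floor of 3 reads. The oxidase gene duox2.L ranged from 2.34 to 12.1 CPM in controls, from 1.4 to 7.69 CPM at lead 210 and from 0.414 to 1.84 CPM at lead 630. Their log2 fold changes at lead 630 were -3.07 ± 0.40 and -2.46 ± 0.60 (adjusted p = 0.000132 and 0.0479 by edgeR's quasi-likelihood test), and the second call was lost when any 1 lead 630 library or any 1 control other than A was left out. For both genes control C was the highest library and lead 210 E the highest of its group, as it was for clca1.2.L. Their lowest library at lead 210 was C (0.958 and 1.4 CPM), just under D (1 and 1.41 CPM), whereas that of clca1.2.L was D.

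Markers of other cells of the gut and skin were read beside the members, leaving the members out. Of all genes 1.98% were called higher at lead 630 and 1.76% at lead 210, the shares to set beside the counts of genes that rose in this and the next paragraph. Enterocyte genes rose in 2 of 30 cases at lead 630 and 6 at lead 210, with 0 lower, led by the lactase gene lct.2.L (106 ± 17.5 CPM in controls, 284 ± 60.3 CPM at lead 630). The summed level of this list was 2640 to 4080 CPM in controls, 3760 to 4480 CPM at lead 210 and 3230 to 4570 CPM at lead 630. Control A was the lowest and control C the highest control in it. Control C was also the highest control for both clca1 and both tm4sf20 genes, and control A the lowest for tm4sf20.L, tm4sf20.S, agr2.L, agr2.S and spdef.S. Both clca1 genes were lowest in control D. At lead 210 the enterocyte sum was highest in B and lowest in E, whereas clca1.2.L and tm4sf20.L were highest in E and lowest in D. At lead 630 the sum was highest in A and lowest in E. There both clca1 genes were highest in A and lowest in B, and tm4sf20.L was highest in D and lowest in E. Of 8 epidermal secretory genes tested 0 passed. At lead 630 4 of them had an unadjusted p under 0.05 by edgeR's quasi-likelihood test. At that p 8.32% of all genes were higher and 4.62% lower. The fold change was negative for 7 of the 8, beside 51.3% of all genes, with a median log2 value of -0.23, beside -0.01. At lead 210 these counts were 2 and 5, with a median of -0.09. There 8.01% of all genes were higher and 4.84% lower at that p, and 50.5% had a negative fold change. Over all 11 epidermal secretory genes the sum was 510 to 550 CPM in controls, 491 to 546 CPM at lead 210 and 360 to 503 CPM at lead 630. The medians were 535, 515 and 486 CPM, and the 360 CPM was that of lead 630 E. Most of the sum was otogl2.L, at 388 ± 20.7 CPM in controls (SD, n = 5) and 250 CPM in lead 630 E. The intelectin genes itln1.L and itln2.L, markers of tadpole skin goblet cells, had at most 19 and 13 reads in any library.

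Enteroendocrine genes rose in 1 of 22 cases at each level (pyy.L), and stomach, ionocyte, multiciliated and cement gland lists had 0 calls. Other lists leaned to 1 sign as well. Fold changes at lead 630 were negative for 5 of 5 cement gland, 13 of 17 multiciliated, 6 of 11 ionocyte and 2 of 5 stomach genes. The same held for 9 of 22 enteroendocrine, 5 of 8 lung, 6 of 6 pancreas and 8 of 30 enterocyte genes, beside 51.3% of all genes. At lead 210 these counts were 4, 12, 0, 5, 13, 4, 6 and 3 in that order, beside 50.5%. In the lung list 2 of 8 rose at each level, both copies of the phosphate transporter gene slc34a2, which gut also uses. The exocrine pancreas list summed to 2210 CPM in control B and to a median of 3.09 CPM in controls, 3.73 CPM at lead 210 and 5.57 CPM at lead 630, with 0 of 6 tested genes past the threshold. Control B was not an extreme library for any of the 8 members. The part of these lists in the members' levels was not tested.

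The authors' deposited table gave the same picture from the same counts. At lead 630 against control it lists all 8 genes with the same sign as here, 3 of them with an adjusted p under 0.05 and lower. At lead 210 none of the 8 is under 0.05 there.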

How the data were processed

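The authors deposited raw counts of reads per Entrez gene. Per the submitters' processing notes the tools included Trim Galore, HISAT2, kallisto and edgeR; tool versions, counting program, strand option, gene models and genome build were not given in the sources used here, so reads of homeologs, tandem copies and antisense neighbours may be shared. The authors also deposited comparison tables with log2 fold changes, log2 CPM, a likelihood-ratio score and p-values. Symbols came from RefSeq (Xenopus_laevis_v10.1, 33597 of 37018 identifiers), then from the authors' tables (1468).

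Here, edgeR 4.0.16 (R 4.3.3) fitted all 15 libraries: filterByExpr, TMM (factors 0.977 to 1.03), robust quasi-likelihood, group as the only term, Benjamini-Hochberg over 27060 genes, call under 0.05. SE is the absolute log2 fold change over the square root of F. Log2 CPM used a prior count of 2. The fit was tested on simulated data. Libraries of a group differed beyond sampling noise (chi-square per gene 4.11 to 16.3 over 30 pairs). DESeq2 1.42.0, filters, RLE scaling, 2-group fits, the replicate letter and left-out libraries were alternatives. Members, lists and rules were chosen with earlier results of these data known. Named genes were the members, list genes past the threshold (up to 4 by p per list and comparison, else the 2 most abundant; slc26a3.3.L, ern2, agr3.L, LOC genes and named markers of other cells were added after values were seen) and the 5 genes most like clca1.2.L, tm4sf20.L and agr2.L. Counting error alone sets the floor.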

Additional observations from a re-analysis of the deposited data

How the results depend on the processing

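The number of mucus list genes called at lead 630 against control was 8 by DESeq2, beside 5, and was 4 to 6 under the other alternatives; at lead 210 it was 9 to 15, beside 11, and between the lead levels 0 throughout. The cause was not tested. Not every pair of same-lettered libraries deviated together (r of -0.135 to 0.334 per letter and pair of groups), so letters were not treated as pairs, and with the replicate block the counts were 5, 12 and 0. For clca1.2.L the alternatives gave -5.5 to -4.66 at lead 630 and -1.01 to 0.33 at lead 210. Between the lead levels it was called by DESeq2 alone (adjusted p = 0.0025, up to 1 by edgeR). Its call at lead 630 ended without lead 630 C or E (adjusted p up to 0.0695 by edgeR). That of clca1.1.L held in 6 of 16 alternatives (adjusted p up to 0.105), ending without control B, C or E, without any single lead 630 library, with no filter and with 2 groups alone. That of tm4sf20.L ended only with the replicate block (0.0517). All these calls are of members chosen on their levels in these groups, so they carry no weight as tests. With homeologs summed, log2 fold changes at lead 630 were -1.72 for tm4sf20 and 0.35 for agr2. The call of duox2.L held in 5 of 16. At lead 210 that of galnt6.2.L was lost without control A, C, D or E or lead 210 A, B or D, that of slc26a3.3.L without control A, B, D or E, and that of aqp8.L without lead 210 D (adjusted p up to 0.0813 by edgeR). With 2 groups alone cftr.L at lead 210 (0.0525) and slc26a3.3.S at lead 630 (0.0533) missed 0.05, the latter also with the block (0.0511), while gcnt1.L, creld2.S, slc26a3.2.S, noxo1.S and LOC108704984 held in all 16. LOC108711738 held in all 15 that tested it.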
